A study of Mus musculus with 24 samples.

Results

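Livers of mice without the mouse constitutive androstane receptor (CAR, encoded by Nr1i3) were compared with livers of wild-type mice that had received no activator of that receptor. The comparison used 8 of the 24 arrays of the study, chosen by sample title, with 1 mouse per array and 6 knockout arrays against 2 wild-type arrays. The knockout side, titled CAR.KO, held 2 mice given corn oil, 2 given TCPOBOP at 3 mg/kg and 2 given CITCO at 30 mg/kg per day, and the wild-type side held 2 mice given corn oil. TCPOBOP, a ligand of mouse CAR, was injected once on the first day and followed by corn oil. CITCO is known as a ligand selective for human CAR, but in the wild-type mice Cyp2b10 and Cyp2c29 were higher under it than under corn oil. Injections were intraperitoneal, at 24 h intervals over 3 days, and livers were taken 6 h after the last one. All mice shared a mixed C57BL/6x129Sv background and are labelled female, and the sources used here do not give their ages. Further groups were set beside these: wild-type mice given CITCO, and human CAR mice given corn oil, titled CAR.AH, in which the mouse albumin promoter, active in hepatocytes, drives human CAR in animals that also lack the mouse receptor. The design text gives each array as the RNA of a single mouse, and the number of 2 mice per group limits the precision of every value.

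CAR is a nuclear receptor of hepatocytes that binds DNA together with the retinoid X receptor Rxra, at paired copies of a short hexamer. It is called constitutive because it can activate transcription with no ligand bound, although in the resting liver much of it is held in the cytoplasm until an activator such as phenobarbital or TCPOBOP releases it. Its best-known targets are cytochrome P450 genes of the Cyp2b and Cyp2c families, which oxidise drugs, steroids and fatty acids. A comparison of livers without the receptor and livers with it in the absence of a ligand asks which of these genes need mouse CAR in the unstimulated state. TCPOBOP was present in 2 of the knockout mice, which lack its receptor, so the knockout groups are also compared with each other.

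Values are log2 expression as deposited, and differences are knockout minus wild type with the standard error (SE) of a limma fit to all 24 arrays. A gene was called when its Benjamini-Hochberg adjusted p over 9167 tested genes was under 0.05. A probe set is called dim on an array when it lies below the 40th percentile of that array, which fell between 4.93 and 5.08. Median correlations of the 8 arrays with the other arrays were 0.988 to 0.991. RNA quality was read from Actb and Gapdh as the level of their 3' minus their 5' probe sets, which grows with degradation. It averaged 0.431 to 0.540 on the knockout arrays and 0.368 to 0.477 on the wild-type corn oil arrays. The mean of 15 hepatocyte markers was 12.21 to 12.34 on the knockout arrays and 12.20 to 12.34 on the wild-type corn oil arrays. Alb, the albumin gene, lay at 13.46 to 13.53 in knockout and at 13.24 and 13.30 in wild type.

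The labelled sex was checked against defining genes. The 3 probe sets of Xist, transcribed from the inactive X chromosome of females, lay between 2.94 and 5.41 on the 6 knockout arrays and between 3.00 and 4.97 on the wild-type corn oil arrays. The highest of them was above the dim limit on 20 of 24 arrays but close to it, at 4.72 to 5.51, and the others were dim on all 24. The Y-linked Kdm5d and Uty were dim on all 24 arrays, and Eif2s3y lay at 4.77 to 5.03 in knockout and 4.82 to 5.03 in wild type. The female-specific sulfotransferase Sult3a1 was dim on all 24 arrays. Several male-biased liver genes had high values in the same livers, among them Hsd3b5 at 9.01 and 10.02 and Slco1a1 at 9.76 and 10.12 on the wild-type corn oil arrays. These values do not settle the sex of the mice, and the sex-biased genes below are read as differences between genotypes of mice with the same label.

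Livers without mouse CAR had lower values of a small set of genes, among them P450s of the Cyp2c family, and higher values of fewer. Of 9167 genes 20 were called, or 0.218%, with 18 lower (0.196%) and 2 higher (0.0218%). Before adjustment 448 genes were lower and 404 higher with a p under 0.05, and the median difference of all tested genes was 0.007. On 19 of the 20 called genes all 6 knockout arrays lay on 1 side of both wild-type arrays, against 12.3% of all tested genes. Those 20 genes were chosen by the difference between the same arrays, so such separation is partly built in. The count depended on single mice: it was 5 without wild-type corn oil replicate 1, 3 of them among the 20, 11 without knockout CITCO replicate 2 and 12 without knockout TCPOBOP replicate 1. Nr1i3, Cyp2c29 and Gstp3 kept their call whichever of the 8 arrays was left out.

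The targeted gene itself was low on every knockout array. Nr1i3 lay between 5.06 and 5.40 on the 6 knockout arrays (median 5.18) and at 7.58 and 7.37 on the wild-type corn oil arrays. The groups did not overlap, and the difference was -2.26 (SE 0.15, adjusted p = 3.62e-07), a 4.80-fold lower value. Over the whole study the 16 arrays of mice without mouse CAR lay between 5.03 and 5.60 and the 8 wild-type arrays between 6.84 and 8.0. Nr1i3 was the only called gene whose 2 ranges over all 24 arrays did not overlap. The 16 arrays include the human CAR mice, and Cyp2c29 reached 12.30 among them. On the CAR.KO arrays of all treatments, phenobarbital included, Cyp2c29 lay at 9.41 or lower, against 10.97 or higher in wild type. Cyp2c50, Cyp2c54, Elovl3 and Rdh16f2 were among the other called genes apart on the CAR.KO and wild-type arrays, and Hprt was among those that overlapped. Nr1i3 is read by 1 probe set, and the sources used here do not say whether its target lies inside the deletion. That probe set was not dim on any of the 6 knockout arrays. Its values there, 5.06 to 5.40, lie close to the dim limit of 4.93 to 5.08, so the size of the Nr1i3 difference is not well measured.

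The Cyp2c genes, a cluster of P450s that oxidise drugs and arachidonic and linoleic acid, held the fall with the smallest p. Of 10 tested members 3 fell, against 0.196% of all tested genes, and 0 rose. Cyp2c29 lay between 7.83 and 9.41 on the knockout arrays (median 8.26), against 10.97 and 11.02 on the wild-type corn oil arrays. No knockout array came within 1 log2 unit of either wild-type array, and the difference was -2.57 (SE 0.15, adjusted p = 7.63e-08). Cyp2c50 lay between 7.53 and 8.54 in knockout (median 8.16), against 10.94 and 10.67 in wild type, a fall of 2.71 (SE 0.35, adjusted p = 0.00152). Cyp2c54 lay between 8.04 and 8.83 in knockout (median 8.47), against 10.68 and 10.36 in wild type, a fall of 2.06 (SE 0.26, adjusted p = 0.00101). For these 2 genes as well the groups did not overlap, but both lost their call without wild-type corn oil replicate 1, with differences of -2.57 and -1.90 (adjusted p = 0.0784 for each).

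Other Cyp2c genes went different ways or stayed level. Cyp2c37 lay between 3.53 and 6.72 in knockout (median 6.10), against 8.36 and 8.31 in wild type, a difference of -2.88 that did not pass (SE 0.73, adjusted p = 0.166). Its 6 knockout arrays were uneven, with the corn oil mice at 3.53 and 3.69 and the other knockout mice at 6.03 to 6.72. Cyp2c55 had a difference of -1.0 (adjusted p = 0.343). Cyp2c39, between Cyp2c29 and Cyp2c38 in gene order, lay at 7.39 to 9.82 in knockout and at 6.02 and 6.07 in wild type, the opposite side from its neighbour, and did not pass (2.44, SE 0.68, adjusted p = 0.206). Cyp2c68, Cyp2c70 and Cyp2c23 had differences of -0.33, -0.10 and 0.23. Cyp2c37, Cyp2c50 and Cyp2c54 are close in sequence, so their probe sets can share signal and their values are not fully separate measurements.

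**Figure D1:**
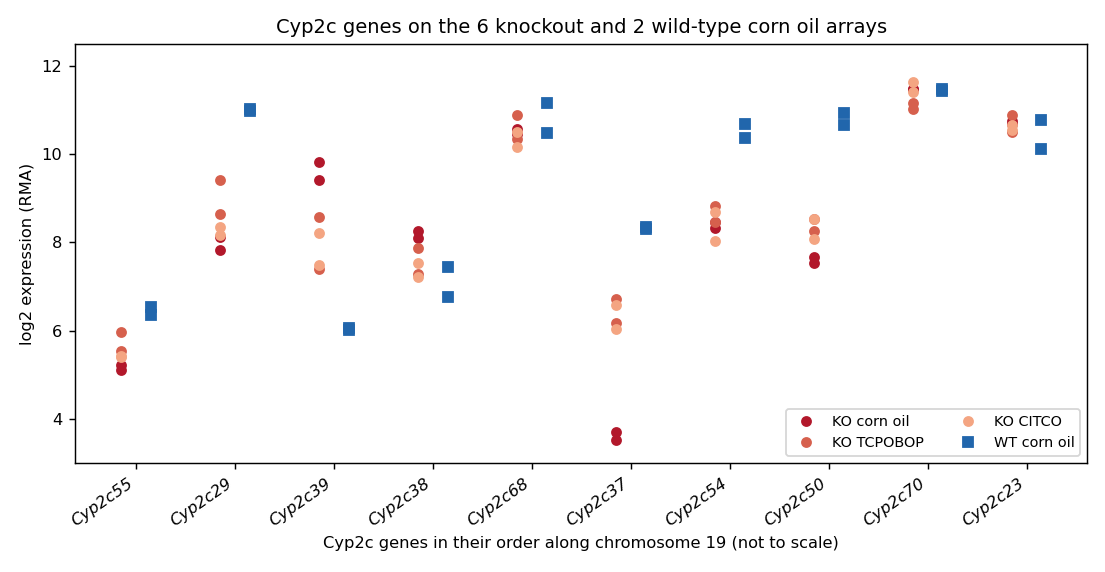
Log2 expression of the 10 tested Cyp2c genes in their order along chromosome 19, with 6 knockout arrays (circles, shaded by treatment) left of 2 wild-type corn oil arrays (squares) for each gene. Cyp2c29, Cyp2c37, Cyp2c54 and Cyp2c50 are lower in knockout by a gap of more than 1 log2 unit, Cyp2c39 lies higher in knockout, and Cyp2c70 and Cyp2c23 overlap.

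The starts of the 3 Cyp2c genes with the largest negative differences are shown because the receptor is known to bind hormone response hexamers near its targets. Each is the stretch from 250 bases before to 50 after the annotated start, from RefSeq for the GRCm38.p6 build, plus strand, with any AGGTCA or AGTTCA hexamer of either strand in capitals.
Cyp2c29, chr19:39286835-39287134: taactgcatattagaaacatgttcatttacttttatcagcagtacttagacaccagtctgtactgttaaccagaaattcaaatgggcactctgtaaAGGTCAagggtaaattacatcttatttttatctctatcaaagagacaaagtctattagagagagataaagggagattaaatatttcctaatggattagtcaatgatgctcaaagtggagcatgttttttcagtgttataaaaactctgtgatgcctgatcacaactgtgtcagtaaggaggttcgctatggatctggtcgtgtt
Cyp2c50, chr19:40089429-40089728: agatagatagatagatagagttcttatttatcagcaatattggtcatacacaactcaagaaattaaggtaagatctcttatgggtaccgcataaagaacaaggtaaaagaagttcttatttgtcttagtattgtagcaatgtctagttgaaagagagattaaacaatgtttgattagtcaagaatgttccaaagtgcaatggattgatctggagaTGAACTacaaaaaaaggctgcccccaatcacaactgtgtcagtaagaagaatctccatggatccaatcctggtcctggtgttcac
Cyp2c37, chr19:39992174-39992473: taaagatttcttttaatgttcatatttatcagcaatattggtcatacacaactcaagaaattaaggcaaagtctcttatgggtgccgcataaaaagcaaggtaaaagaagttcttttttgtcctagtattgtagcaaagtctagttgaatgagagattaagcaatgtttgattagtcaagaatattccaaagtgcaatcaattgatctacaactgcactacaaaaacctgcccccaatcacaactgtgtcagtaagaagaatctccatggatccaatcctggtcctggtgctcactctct
Cyp2c29 holds 1 hexamer, AGGTCA, and Cyp2c50 holds 1, read as TGAACT on the plus strand. None of the 3 holds a pair spaced by 4 bases in the same orientation. Of 32851 promoter windows of this length in the table, 27.7% hold at least 1 hexamer and 0.03% such a pair. Aligned with gaps, the windows of Cyp2c50 and Cyp2c37 were identical at 90.1% of 292 aligned positions, and those of Cyp2c29 and Cyp2c50 at 71.3% of 272. Cyp2c54, the third Cyp2c gene that fell, is named only.

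Cyp2b10, the standard marker of activated CAR, was low with or without the receptor. It lay between 4.45 and 5.42 on the knockout arrays (median 4.81), against 4.66 and 5.22 on the wild-type corn oil arrays, and was dim on 5 of the 6 knockout arrays and on 1 of the wild-type ones. The groups overlapped, and the difference was -0.08 (SE 0.31, adjusted p = 0.966). Cyp3a11, a major drug-metabolising P450, lay between 11.59 and 12.27 in knockout and at 11.39 and 11.95 in wild type (0.24, adjusted p = 0.569). Cyp1a2, the caffeine-oxidising P450 of the aryl hydrocarbon receptor pathway, had a difference of 0.31 (adjusted p = 0.614), and Gadd45b, a growth arrest gene induced by CAR activators, one of -0.14 (adjusted p = 0.923).

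Taken as a list of known CAR targets, 34 genes were tested, of which 3 fell and 0 rose, the 3 Cyp2c genes above. Over all tested genes 0.196% fell and 0.0218% rose. The median difference of the list was -0.10. On 8 of the 34 all knockout arrays lay below both wild-type arrays (6.24% of all tested genes did) and on 3 above (6.09%). Alas1, the first enzyme of heme synthesis, was among the lower ones, between 8.42 and 9.99 in knockout (median 8.93), against 10.40 and 10.06 in wild type, and did not pass (-1.11, SE 0.39, adjusted p = 0.337). Of 24 tested glutathione transferases 1 fell, Gstp3, against 0.196% of all tested genes, and their median difference was -0.08. Gstm1 of the mu class had -0.06 and Gstt1 of the theta class -0.21. The efflux pump Abcc3 had -0.11 and the epoxide hydrolase Ephx1 -0.23, none of them called.

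**Figure D2:**
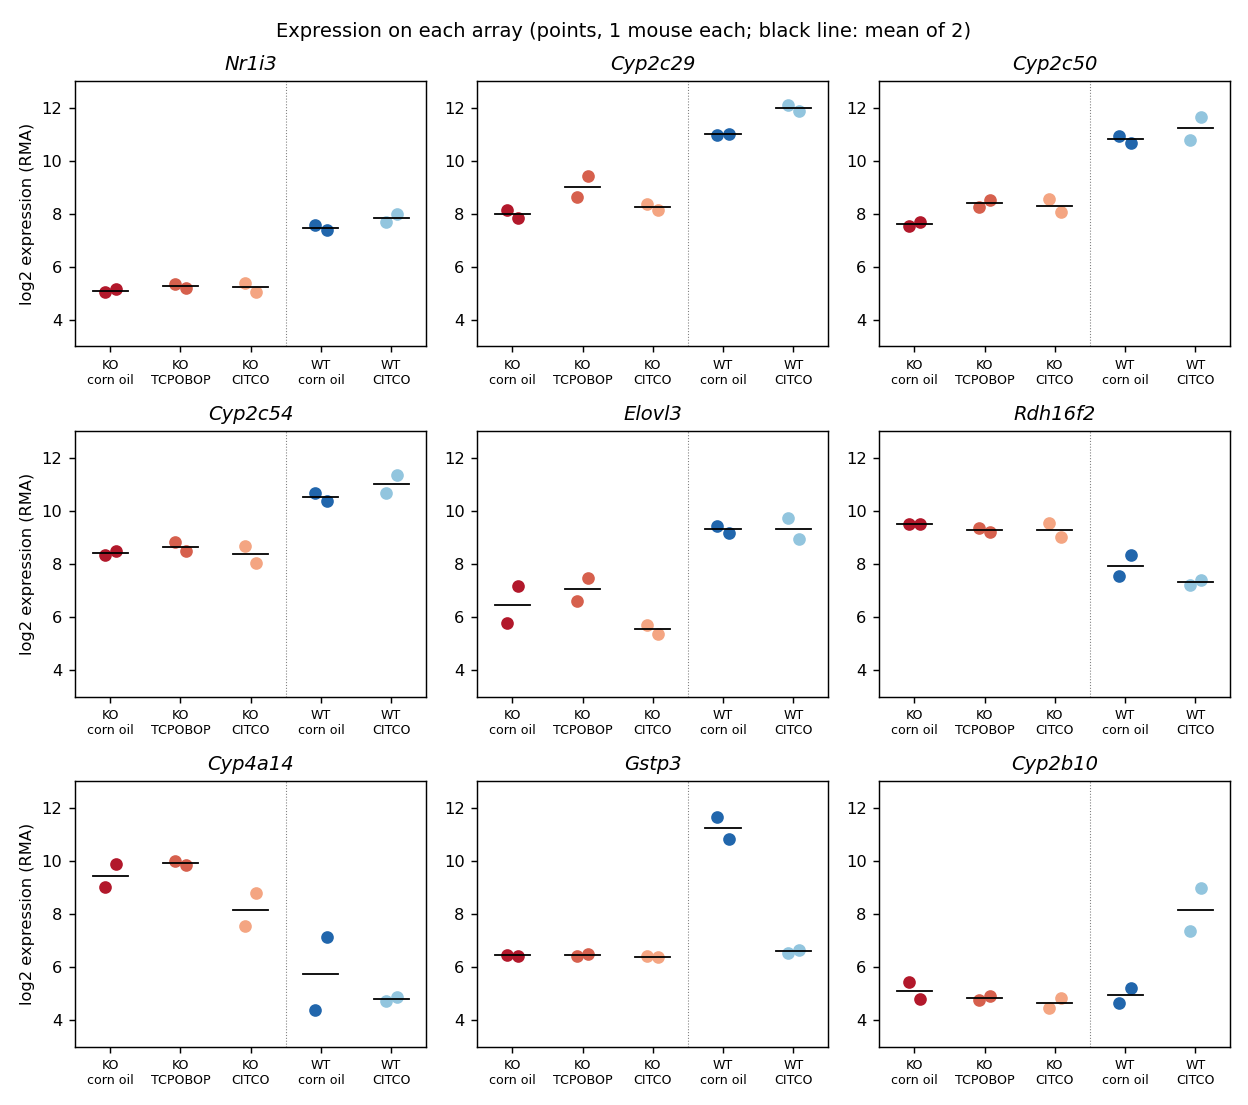
Log2 expression of 9 genes on each array, with knockout groups left of the dotted line and wild-type groups right of it, 2 mice per group (points) and their mean (black line). Nr1i3, the 3 Cyp2c genes and Elovl3 are lower and Rdh16f2 and Cyp4a14 higher in knockout, while, of the 5 groups shown, Gstp3 is high in wild-type corn oil and Cyp2b10 in wild-type CITCO.

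Male-biased genes, those with higher expression in male than in female liver, held 3 of the 18 falls. Of 18 tested members 3 fell, against 0.196% of all tested genes, and 0 rose. Their median difference was -0.74, against 0.007 over all tested genes. With an unadjusted p under 0.05 in the limma fit 12 were lower, against 4.89% of all tested genes. Elovl3, an elongase of very long chain fatty acids, lay between 5.37 and 7.45 on the knockout arrays (median 6.20), against 9.44 and 9.18 on the wild-type corn oil arrays. The groups were separated by more than 1 log2 unit, and the difference was -2.96 (SE 0.46, adjusted p = 0.00783). C6, a component of the terminal complement complex, lay between 7.96 and 8.77 in knockout (median 8.11), against 9.73 and 9.26 in wild type, a fall of 1.25 (SE 0.20, adjusted p = 0.00946). Elovl3 lost its call without either wild-type corn oil array (adjusted p = 0.19 and 0.0724) and C6 without replicate 1 of them (-1.01, adjusted p = 0.359). The count of passing list members was 0 without wild-type corn oil replicate 1 and 1 without replicate 2.

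Cyp4a12a, a fatty acid hydroxylase that is male-predominant in mouse liver, was the third and differed among the knockout groups. It lay at 7.53 and 7.63 in knockout corn oil mice, at 10.46 and 10.76 in knockout TCPOBOP mice and at 8.65 and 8.82 in knockout CITCO mice, against 10.58 and 10.10 in wild-type corn oil mice. The TCPOBOP mice overlapped the wild-type mice, and it was the 1 called gene with such an overlap. The 6-array difference was -1.36 (SE 0.24, adjusted p = 0.0277), and the corn oil mice alone gave -2.76 (SE 0.30, adjusted p = 2.25e-04). Knockout TCPOBOP exceeded knockout corn oil by 3.03 (adjusted p = 1.82e-04). The 6-array call was lost in 7 of 8 cases in which 1 array was left out, with differences from -1.60 to -1.13.

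Other male-biased genes had large differences that did not pass. Hsd3b5, a steroid-reducing enzyme, lay between 5.21 and 8.38 in knockout (median 6.95), against 10.02 and 9.01 in wild type (-2.66, SE 0.96, adjusted p = 0.349). Cyp7b1, an oxysterol hydroxylase of bile acid synthesis, lay between 8.4 and 9.91 in knockout (median 9.29), against 11.32 and 11.04 in wild type (-1.93, SE 0.40, adjusted p = 0.068). On both genes the groups did not overlap. Moxd1 was dim on all 6 knockout arrays and uneven in wild type, at 7.36 and 4.84. Of 16 tested female-biased genes 0 passed, and their median difference was 0.22. With an unadjusted p under 0.05 in the limma fit 7 were higher, against 4.41% of all tested genes. The largest difference was that of the P450 Cyp2b9, at 4.47 to 8.08 in knockout (median 6.43) and 4.33 and 4.25 in wild type (2.01, SE 0.65, adjusted p = 0.303). It was dim on both wild-type arrays and on 1 knockout array, and mice of the same knockout group differed by up to 2.96 (8.08 and 5.12 for TCPOBOP).

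**Figure D3:**
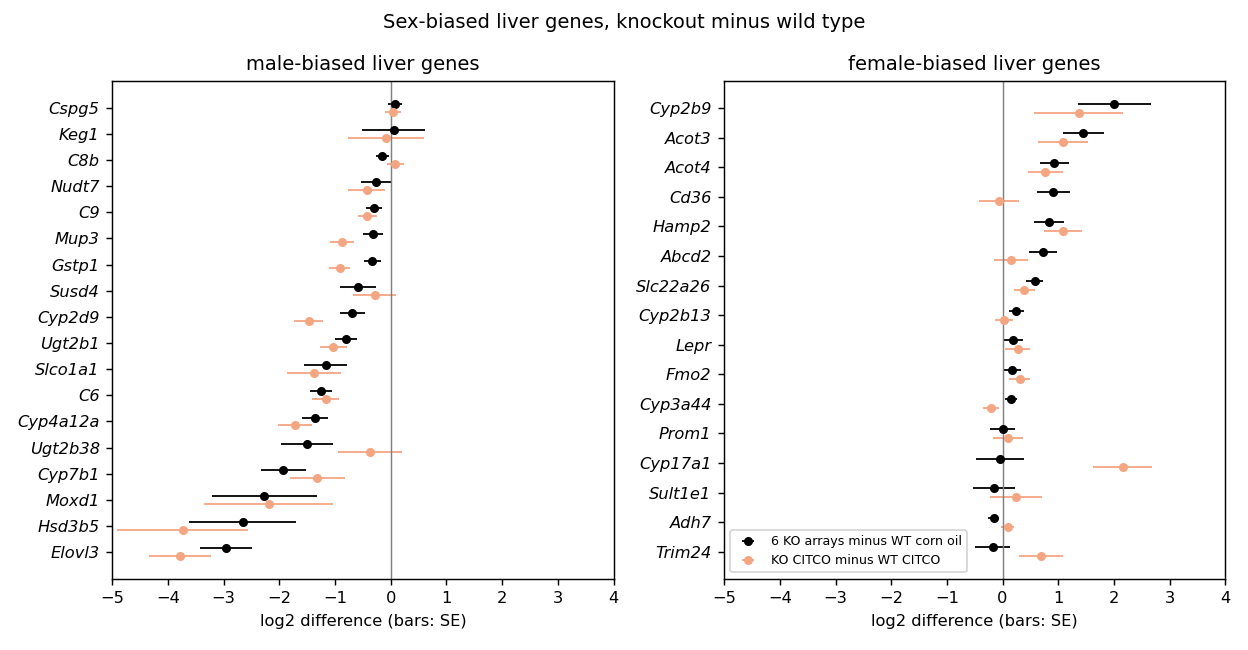
Log2 differences of 18 male-biased (left) and 16 female-biased (right) liver genes, for the 6 knockout arrays minus wild-type corn oil (black) and for knockout CITCO minus wild-type CITCO (orange), with SE bars of the limma fit. Most male-biased genes lie below 0 in both, with Elovl3 lowest, and female-biased genes lie closer to 0.

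Both genes that rose encode enzymes of lipid substrates. Rdh16f2, a member of the retinol dehydrogenase family, lay between 9.02 and 9.55 on the knockout arrays (median 9.43), against 7.53 and 8.33 on the wild-type corn oil arrays. The groups did not overlap, and the rise was 1.42 (SE 0.24, adjusted p = 0.0179). It lost its call without wild-type corn oil replicate 1 (1.03, adjusted p = 0.458) and without knockout TCPOBOP replicate 1 (1.40, adjusted p = 0.0534). It was the 1 member called among 16 genes of retinoid metabolism, against 0.218% of all tested genes, and the list had a median difference of 0.07. Cyp4a14, a fatty acid omega-hydroxylase and target of PPARalpha, lay between 7.53 and 9.99 in knockout (median 9.43), against 4.38 and 7.12 in wild type, where 1 of the 2 arrays was dim. The rise was 3.43 (SE 0.63, adjusted p = 0.0298), 4.80 without wild-type corn oil replicate 2 and 2.07 without replicate 1 (adjusted p = 0.561). Its call was lost in 5 of 8 cases in which 1 array was left out, in the other 4 with differences of 3.22 to 3.46 and adjusted p from 0.0668 to 0.0793.

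Of 34 tested genes of fatty acid oxidation and PPARalpha targets 1 rose and 0 fell, with a median difference of 0.02. Over all tested genes 0.0218% rose and 0.196% fell. Cpt1a, which admits fatty acids to mitochondria, had 0.10, the PPARalpha target Ehhadh 0.47 (adjusted p = 0.512) and Ppara itself -0.21. The acyl-CoA thioesterases Acot3 and Acot4 had all knockout arrays above both wild-type arrays, with differences of 1.45 (adjusted p = 0.166) and 0.93 (adjusted p = 0.203), and did not pass. Among 21 bile acid genes 0 passed (median -0.03), and Cyp7a1, whose product limits the rate of bile acid synthesis, differed by -0.07 (SE 0.67). Pck1, a gluconeogenic enzyme, had -0.09 (SE 0.54).

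Gstp3, a pi-class glutathione transferase, had the largest difference of the 20 called genes and uneven values among wild-type mice of other treatments. It lay between 6.38 and 6.50 on the 6 knockout arrays (median 6.42), against 11.67 and 10.83 on the wild-type corn oil arrays, a difference of -4.82 (SE 0.50, adjusted p = 1.20e-04) or 28.2-fold. In wild-type CITCO mice it lay at 6.54 and 6.66, close to the knockout values. In wild-type TCPOBOP mice it lay at 6.81 and 10.14, and in wild-type phenobarbital mice at 11.53 and 11.44, so wild-type arrays were found at both levels. Plekhb2, an endosomal protein, lay between 5.32 and 5.72 in knockout, against 6.43 and 6.25 in wild-type corn oil (-0.85, SE 0.12, adjusted p = 0.00259). The other 6 wild-type arrays of Plekhb2 lay between 5.33 and 5.89, below the wild-type corn oil mice, so for this gene a difference of those 2 mice and loss of the receptor cannot be told apart in the 6-array comparison. Plekhb2 lost its call without wild-type corn oil replicate 1 (-0.77, adjusted p = 0.149).

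Hprt, the X-linked purine salvage enzyme, was low in 4 of the 6 knockout mice. It lay at 7.61 and 7.83 in knockout corn oil, 7.56 and 7.90 in knockout TCPOBOP and 8.72 and 8.65 in knockout CITCO, against 9.07 and 9.0 in wild-type corn oil. All 6 arrays were below the wild-type ones, with the CITCO mice near them, and the difference was -0.99 (SE 0.15, adjusted p = 0.00783), which lost its call without either wild-type array (-0.95 and -1.03, adjusted p = 0.19 and 0.0724). Asns, the asparagine synthetase, lay between 5.56 and 6.23 in knockout (median 5.85), against 8.41 and 8.26 in wild type (-2.44, SE 0.46, adjusted p = 0.0315). Wild-type arrays of the other treatments lay between 6.40 and 7.47 for Asns, below the wild-type corn oil mice, and knockout phenobarbital mice at 7.03 and 6.21. How much of the Asns difference belongs to the 2 wild-type corn oil mice was not tested. Its second probe set gave -2.70, with a dim knockout mean of 3.72, and its call was lost whichever of the 8 arrays was left out, with differences from -2.53 to -2.35.

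The remaining called genes all fell. Selenbp1, a selenium-binding protein abundant in liver, lay between 9.35 and 10.07 in knockout, against 11.40 and 10.79 in wild type (-1.42, SE 0.24, adjusted p = 0.0179), but a second probe set gave -0.20. It lost its call without wild-type corn oil replicate 1 (-1.11) and without knockout CITCO replicate 2 (-1.36). Ppm1m, a protein phosphatase, lay between 5.55 and 5.94 in knockout and at 6.59 and 6.75 in wild type (-0.96, SE 0.16, adjusted p = 0.0124), and lost its call without either wild-type array (-1.04 and -0.88). Stk25, a kinase of the Ste20 family, had -0.79, Parp3, an enzyme of DNA break repair, -0.75 and Mettl23, a methyltransferase, -0.70, with adjusted p from 0.0298 to 0.0409. The second probe set of Parp3 gave 0.08, but its means of 4.17 in knockout and 4.08 in wild type are dim in both groups. Gmppa, a regulator of GDP-mannose synthesis, at -0.57 and Arpc5, a subunit of the actin-nucleating Arp2/3 complex, at -0.49 complete the 20. The other 4 probe sets of Gmppa gave -0.37 to 0.12, and with the mean of all its probe sets the call was lost (-0.27, adjusted p = 0.168). These last 2 were named after their values were seen. For Mettl23, Gmppa and Arpc5 both wild-type corn oil mice lay above every other wild-type array, and those other arrays overlapped the 6 knockout arrays. The limit given for Plekhb2 therefore holds for them as well. The 5 genes from Stk25 to Arpc5 lost their call in 6 to 8 of 8 cases in which 1 array was left out.

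The genotypes were also compared under CITCO, knockout against wild type, in mice that share no array with the corn oil comparison. This is not a basal comparison: Cyp2b10 lay at 7.36 and 8.98 in wild-type CITCO mice, against 4.66 and 5.22 in wild-type corn oil mice, and Cyp2c29 at 12.11 and 11.87, against 10.97 and 11.02. It called 20 genes (0.218%), 8 higher (0.0873%) and 12 lower (0.131%). Corn oil alone called 21 (0.229%), 8 higher (0.0873%) and 13 lower (0.142%). With no adjustment the counts at a p under 0.05 were 706 in CITCO mice and 602 in corn oil mice. The 2 comparisons had 7 called genes in common, all changed in the same direction: Nr1i3, Cyp2c29, Cyp2c50, Cyp2c54, Elovl3 and Cyp4a12a lower and Rdh16f2 higher. These are 7 of 20 and 7 of 21, and all 7 were also among the 20 of the 6-array comparison, which shares arrays with both. Of the 7, only Nr1i3 and Cyp2c29 kept their call in both comparisons whichever array was left out.

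The values of those 7 genes in CITCO mice were as follows. Cyp2c29 lay at 8.35 and 8.16 in knockout CITCO, against 12.11 and 11.87 in wild-type CITCO (-3.74, SE 0.19, adjusted p = 5.40e-09), where corn oil gave -3.02 (adjusted p = 1.52e-07). The test of the difference between these did not pass (0.72, adjusted p = 0.827). Elovl3 lay at 5.71 and 5.37 in knockout CITCO, against 9.74 and 8.92 in wild-type CITCO (-3.79, SE 0.56, adjusted p = 0.00566). Rdh16f2 lay at 9.55 and 9.02 in knockout CITCO, against 7.21 and 7.41 in wild-type CITCO (1.98, SE 0.30, adjusted p = 0.00588). The other differences were -2.61 for Nr1i3, -2.91 for Cyp2c50, -2.65 for Cyp2c54 and -1.72 for Cyp4a12a.

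Of the 20 genes of the 6-array comparison all had the same sign in CITCO mice, and 7 passed there. The knockout CITCO arrays are part of the 6-array mean that chose the 20, so agreement in sign is partly built in. Of the other 13, 5 lay within 0.20 of 0: Plekhb2 at -0.02, Hprt at -0.10, Gmppa at -0.13, Arpc5 at -0.16 and Gstp3 at -0.20. Cyp4a14 had 3.36 (adjusted p = 0.127) and C6 -1.17 (adjusted p = 0.0697). Of the 18 male-biased genes 3 fell in CITCO mice, with a list median of -0.98, against 2 and -0.67 in corn oil mice. Over all tested genes 0.131% fell in CITCO mice and 0.142% in corn oil mice.

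**Figure D4:**
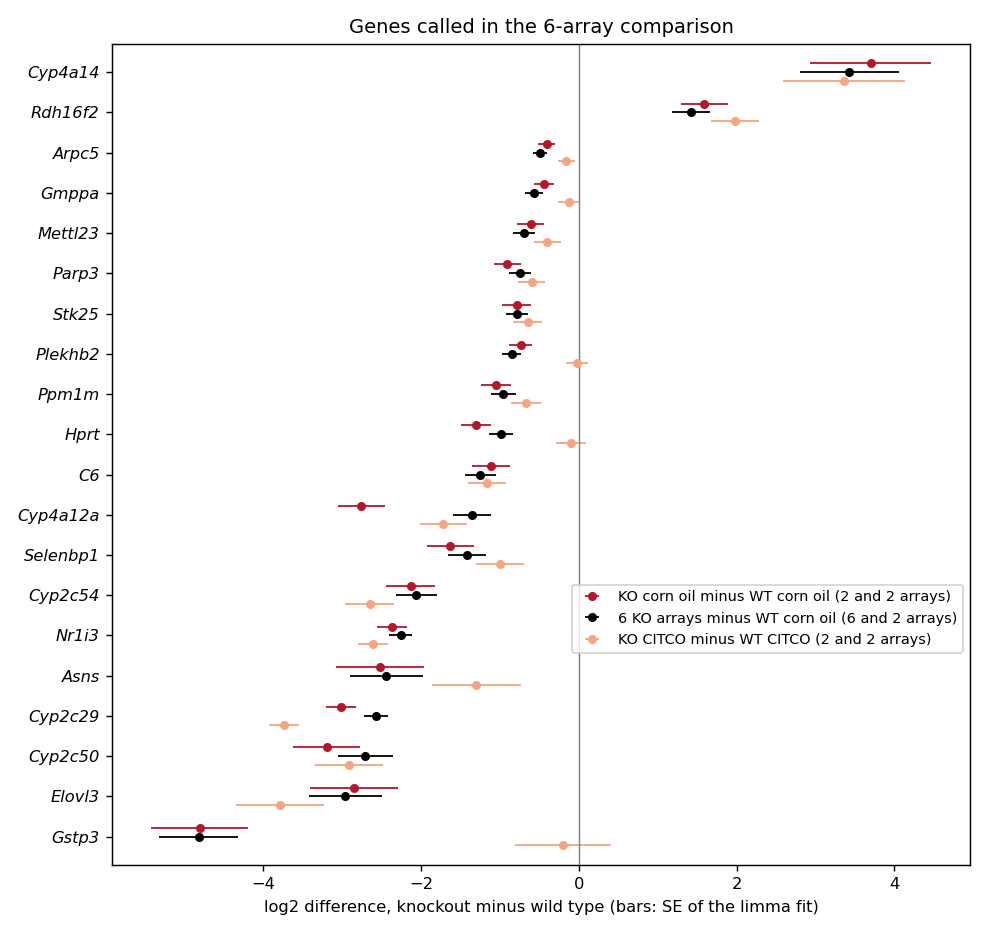
Log2 differences with SE bars for the 20 genes called in the 6-array comparison, sorted by size, in corn oil mice (red), over the 6 knockout arrays (black) and in CITCO mice (orange). Plekhb2, Hprt, Gmppa, Arpc5 and Gstp3 lie between -0.20 and -0.02 in CITCO mice, and the Cyp2c genes, Nr1i3 and Elovl3 lie between -3.79 and -2.06 in all 3.

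The CITCO comparison called 13 further genes, 2 of them known CAR targets. Cyp2b10 lay at 4.45 and 4.82 in knockout CITCO, against 7.36 and 8.98 in wild-type CITCO (-3.53, SE 0.38, adjusted p = 2.18e-04), and Cyp2c55 at 5.40 and 5.43, against 6.66 and 8.90 (-2.37, SE 0.44, adjusted p = 0.034). The male-biased Cyp2d9 fell by 1.47, the lysosomal nuclease Dnase2a by 1.68, 4931406C07Rik by 0.96 and the glucuronosyltransferase Ugt2b5 by 0.66. Apoa4, an apolipoprotein, rose by 1.80, the ADP-ribosyltransferase Parp16 by 1.40 and the arachidonate-preferring synthetase Acsl4 by 1.23. The purine synthesis enzyme Paics rose by 0.87, the nuclear import receptor Tnpo1 by 0.75, the xylose kinase Fam20b by 0.59 and Pacs2 by 0.49. Parp16 was above the dim limit on only 3 arrays of the study. These were both knockout CITCO arrays (5.97 and 5.43) and a human CAR corn oil array (5.03). It was therefore tested only because of the group in which it is high, and leaving out single arrays does not test this dependence. Parp16 was dim in wild-type CITCO mice (4.26 and 4.33), so the size of its rise is not well measured. Of these 13, Cyp2b10 and Parp16 kept their call whichever of the 4 arrays was left out, and the other 11 did not. The count of 20 was 8 without either wild-type CITCO array and 6 without knockout CITCO replicate 2.

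Corn oil mice alone added genes that the 6-array mean did not hold. Cyp2c37 lay at 3.53 and 3.69 in knockout corn oil, against 8.36 and 8.31 in wild-type corn oil (-4.73, SE 0.89, adjusted p = 0.0346). Both knockout values are dim, so the size of that difference is not well measured. Marco, a scavenger receptor of macrophages, lay at 7.33 and 7.28, against 5.98 and 5.16 (1.73, SE 0.24, adjusted p = 0.00327), and at 5.61 to 6.21 in the other 4 knockout mice. Slc22a26, an organic anion transporter, rose by 1.22, the vasopressin receptor Avpr1a by 0.90 and BC018473 by 1.45. D17H6S56E-5 rose by 0.86, the nucleotidase Nt5e by 0.65 and Tox by 0.73. Tox was above the dim limit on only 2 arrays of the study, both knockout (5.09 under corn oil, 5.06 under TCPOBOP). It was therefore tested only because of arrays on which it is high. BC018473 was dim on both wild-type corn oil arrays (4.77 and 4.55), so the size of its rise is not well measured. BC018473, D17H6S56E-5 and Tox lost their corn oil call with the mean of probe sets (adjusted p = 0.0781, 0.258 and 0.125). Each of these 8 lost its call when at least 1 of the 4 arrays was left out. The count of 21 was 4 without knockout corn oil replicate 1, 7 without wild-type corn oil replicate 1 and 12 without knockout corn oil replicate 2.

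The mean of 16 tested Kupffer cell and macrophage markers was 7.82 and 8.07 on the knockout corn oil arrays, 6.84 to 8.07 over all 6 knockout arrays, and 7.47 to 7.78 on the wild-type corn oil arrays. Their median difference was 0.24 in corn oil mice, with 1 called (0.229% of all tested genes were), and -0.25 over the 6 arrays, with 0 called. Clec4f, a lectin of Kupffer cells, had -0.63 over the 6 arrays (adjusted p = 0.383). In whole liver, fewer cells of a type and less RNA per cell cannot be told apart, and the part of these cells in the result was not tested.

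Few genes were called between ligand and corn oil within knockout mice. Knockout TCPOBOP differed from knockout corn oil in 7 genes (0.0764%) and knockout CITCO in 3 (0.0327%). Before adjustment 1047 (11.4%) and 862 (9.4%) had a p under 0.05 in the limma fit. In the 6-array comparison, which holds more arrays, that share was 9.29%. The knockout groups are therefore not taken as alike, and the part of single mice in these shares was not tested. Of the 20 genes of the 6-array comparison, Cyp2c29 (1.05, adjusted p = 0.0449) and Cyp4a12a passed under TCPOBOP, and 0 passed under CITCO. Cyp2c29 lay at 8.64 and 9.41 in knockout TCPOBOP mice, above the 8.13 and 7.83 of knockout corn oil mice and below both wild-type mice. Slc22a26, Avpr1a and Marco, 3 of the genes higher in knockout corn oil, were lower under TCPOBOP (-1.06, -1.32 and -1.47). They were chosen as high on the same knockout corn oil arrays, so lower values here are partly built in. Against those arrays knockout CITCO mice gave -0.86, -0.91 and -1.4, not called.

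Human CAR mice on corn oil also lack mouse CAR, and since they are compared with the same 2 wild-type arrays their values are given only side by side. Their 5 called genes (0.0545%) included Nr1i3 at -2.26, Gstp3 at -4.47 and Plekhb2 at -1.0. Cyp2c29 lay at 10.74 and 10.67 in human CAR mice, against 10.97 and 11.02 in wild type (-0.29, adjusted p = 0.784), while knockout corn oil mice lay at 8.13 and 7.83. Cyp2b10 was at 8.22 and 8.82, against 4.66 and 5.22 in wild type (3.58, adjusted p = 2.72e-04). Elovl3 was at 5.59 and 7.91, against 9.44 and 9.18 in wild type (-2.56, adjusted p = 0.169), and Rdh16f2 at 9.30 and 8.76, against 7.53 and 8.33 (1.10, adjusted p = 0.267).

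The called genes were spread over 10 chromosomes, with 5 on chromosome 19, where 357 genes were tested (1.40%), and 5 on chromosome 1, where 530 were tested (0.943%). The 5 on chromosome 19 are Cyp2c29, Cyp2c50, Cyp2c54, Elovl3 and Gstp3, and those on chromosome 1 are Nr1i3 itself, Plekhb2, Stk25, Gmppa and Arpc5. The 30 tested genes nearest to Nr1i3, 15 on each side, were read as well, since they are linked to the deleted locus. None was called in the 6-array, corn oil or CITCO comparison by limma. In the 6-array one 10 of the 30 had an unadjusted p under 0.05, a larger share than the 9.29% of all tested genes. Their differences ran from -0.52 for Atf6, a sensor of endoplasmic reticulum stress, to 0.69 for Rgs5, with a median of -0.08. Tomm40l, the next tested gene after Nr1i3, had -0.39 (SE 0.10, adjusted p = 0.196). On 9 of the 30 the 6 knockout arrays lay on 1 side of both wild-type arrays, a larger share than the 12.3% of all tested genes. The cause was not tested.

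**Figure D5:**
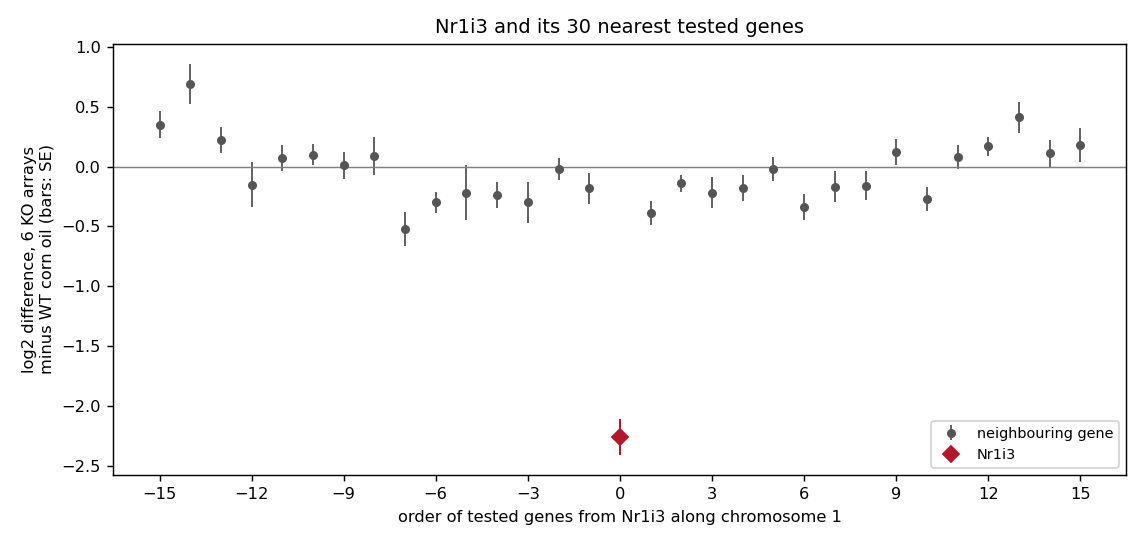
Log2 differences of the 6 knockout arrays minus wild-type corn oil, with SE bars, for Nr1i3 (diamond) and the 30 nearest tested genes in their order along chromosome 1. Nr1i3 lies at -2.26, and its neighbours lie between -0.52 and 0.69.

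Most other pathways of the liver held no called gene in the 6-array comparison. With 0 called in either direction were 18 genes of glucuronidation and sulfation (median 0.04), 25 transporters (0.00), 43 esterases, hydrolases and oxidoreductases (0.09) and 19 genes of cholesterol synthesis and uptake (-0.15). The same held for 16 genes of gluconeogenesis and fasting (-0.06), 40 nuclear receptors and liver factors (-0.05), 14 of heme synthesis and degradation (-0.10) and 25 of S phase and mitosis (0.10). Rxra, the partner of CAR, had -0.20 and Hnf4a, a hepatocyte transcription factor, -0.14, neither called. Of 39 drug-metabolising P450s and partners 4 fell and 1 rose, all named above, with a median of -0.04. Over all tested genes 0.196% fell and 0.0218% rose. The methyltransferase Tpmt, which inactivates thiopurine drugs, lay between 6.39 and 7.05 in knockout, against 7.93 and 7.86 in wild type, and did not pass (-1.06, SE 0.22, adjusted p = 0.0683).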

How the data were processed

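Gene expression was measured with 1 Affymetrix array per mouse liver, from total RNA. The 24 deposited columns hold log2 expression of 22690 probe sets. Per the submitters' processing notes the authors used RMA and R 2.15.0, and nothing was normalised again. Array medians ran from 5.41 to 5.51. Probe sets were named from the platform annotation, with 20380 having 1 gene symbol, and a gene was represented by its probe set with the highest mean. Of 12393 genes, 9167 lay above the 40th percentile of their array on at least 2 arrays and were tested.

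A model of 12 group means was fitted to all 24 arrays with limma 3.58.1 (R 4.3.3), leaving 12 residual degrees of freedom. The 6-array difference is the mean of the 3 knockout group means minus wild-type corn oil. Benjamini-Hochberg adjustment ran over the 9167 genes of each comparison. The fit was tested on simulated arrays, and no 2 arrays were copies (smallest SD of a difference 0.171).

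The members, gene lists, tests and alternatives were chosen with earlier results of these data known. Nr1i3, Cyp2c29, Cyp2b10, Cyp2c55, Cyp3a11, Cyp1a2, Cyp7a1, Pck1 and Gadd45b were always named. So were the 15 largest falls and rises called in the 6-array comparison without overlap, the 6 largest of each called in corn oil and in CITCO mice, and up to 4 called members of each list. Other list members and Cyp2c genes are given as examples of their group, and the remaining called genes of small counts were named after their values were seen. Replicate numbers did not pair the mice: same-numbered deviations correlated at -0.097 to 0.128 between groups. Alternatives were array weights, fewer arrays, a replicate block, a 2-fold limit, averaging a gene's probe sets, other filters on dim genes, cyclic loess, a robust prior with a variance trend, and leaving out each array. Promoter windows were aligned with Biopython 1.88, and figures drawn with matplotlib 3.10.9. The sources used here give neither litters nor hybridisation dates.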

Additional observations from a re-analysis of the deposited data

Results flagged for a closer look

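For 2 genes the genotype difference in corn oil mice differed from that in CITCO mice by the limma test of the difference itself (2 of 9167 genes, 0.0218%, with 517 at a p under 0.05 before adjustment). Cyp2b10 differed by 3.71 (adjusted p = 0.0287), with a knockout minus wild-type difference of 0.17 in corn oil mice and -3.53 in CITCO mice. Its 2 wild-type CITCO mice, at 7.36 and 8.98, were higher than every other array of these groups. Parp16 differed by -1.53 (adjusted p = 0.0287), with -0.13 in corn oil mice and 1.40 in CITCO mice. Its probe set was dim on most arrays. Its 2 knockout CITCO mice lay at 5.97 and 5.43 and the other knockout arrays at 4.27 to 4.75. The wild-type arrays of these groups lay at 4.26 to 4.60. Parp16 was tested only because of the knockout CITCO group, in which it is high, and that limits this result as well. Among the 46 named genes, 0 had a single array of the 6 knockout arrays that stood apart from the rest by Dixon's criterion.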

How the results depend on the processing

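The 6-array count of 20 became 36 with array weights, 67 when only the 8 arrays of the comparison were fitted, 35 without the 2 phenobarbital arrays that lie apart from the rest and 12 with a 2-fold limit. It was 46 for the mean of the corn oil and CITCO differences, an alternative chosen after seeing the data. All 20 genes were among the 36, the 67 and the 35, and 16 were among the 46. With the 6 knockout arrays as 1 group in a fit of 8 arrays, 18 genes were called, 13 of them among the 20. Lost there were Cyp4a12a (adjusted p = 0.614), Hprt (0.324), Cyp4a14 (0.15), Gmppa (0.114), Arpc5 (0.105), Mettl23 (0.0612) and C6 (0.0602). Cyp4a14 and Asns were also lost with the variance trend and robust prior (adjusted p = 0.106 each), and Gmppa, Parp3 and Selenbp1 with the mean of probe sets (-0.27, -0.33 and -0.81). Leaving out 1 array gave 5 to 19. The corn oil count of 21 became 12 with the mean of probe sets, 43 with array weights and 44 with only the arrays compared, and 4 to 15 with 1 array left out. The CITCO count of 20 became 128, 45 and 32 with array weights, only the arrays compared and without the 2 phenobarbital arrays, and 6 to 15 with 1 array left out. With the replicate number as a block the 3 counts were 22, 21 and 19. Elovl3 lost its corn oil call with cyclic loess, the mean of probe sets, the variance trend and robust prior, and the block (adjusted p from 0.0508 to 0.15). Rdh16f2 lost its corn oil call with the mean of probe sets (adjusted p = 0.0564). Cyp4a12a lost its CITCO call with only the arrays compared (adjusted p = 0.0579). The cause of these shifts was not tested. The share of higher calls in the 6-array comparison was 2 of 20, against 31 of 67 with only its 8 arrays and 10 of 36 with array weights. The count of male-biased genes that fell was 7 with only the 8 arrays and 6 for the mean of corn oil and CITCO differences, against 3.

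Of 1112 recomputed values for 68 gene results, 847 kept direction and side of the threshold, 250 lost the call, 3 gained it and 12 changed sign. The 3 gained are Cyp2b10 (-1.68, adjusted p = 0.00822) and Cyp2c55 (-1.83, adjusted p = 0.0106) for the mean of corn oil and CITCO differences, and Cyp2c55 with only the 8 arrays (adjusted p = 0.00559). The 12 belong to 4 genes without a call. With 1 array left out, Cyp2b10 ran from -0.36 to 0.20, Cyp3a11 from -0.04 to 0.52, Cyp7a1 from -0.45 to 0.32 and Pck1 from -0.27 to 0.10. Cyp2b10 gave 0.05 with the mean of probe sets, 0.20 without wild-type corn oil replicate 2 and 0.02 without knockout corn oil replicate 2. Cyp3a11 gave -0.04 without wild-type corn oil replicate 1 and -0.19 for the mean of corn oil and CITCO differences. Cyp7a1 gave 0.08, 0.32 and 0.10 without knockout CITCO replicate 2, wild-type corn oil replicate 1 and knockout TCPOBOP replicate 2, and 0.03 for that mean. Pck1 gave 0.06 with the mean of probe sets, 0.10 without wild-type corn oil replicate 2 and 0.03 without knockout corn oil replicate 2. Gstp3 kept its call for the mean of corn oil and CITCO differences, at -2.51 (adjusted p = 0.0118) against -4.82. Calls kept whichever array was left out numbered 3 of 20 over the 6 arrays, 4 of 21 in corn oil mice and 5 of 20 in CITCO mice. A group reduced to 1 mouse was assumed to vary like the other groups. Dim probe sets compress differences, as for Cyp2b9 and Cyp2b10.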
